A study of Mus musculus with 6 samples.

Results

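A set of 9 splicing-regulator genes was followed in differentiating muscle cells with and without *Hnrnpa2b1*: the polypyrimidine tract-binding genes *Ptbp1*, *Ptbp2* and *Ptbp3*, the Quaking gene *Qk*, the RNA-binding motif genes *Rbm20*, *Rbm24* and *Rbm38*, and the epithelial splicing regulators *Esrp1* and *Esrp2*. They were found by symbol among the 46078 genes of the deposited count table, and all 9 were listed there. The libraries are total RNA of C2C12 cells, an immortalized mouse myoblast line that fuses into myotubes once serum is withdrawn, taken after 2 days of differentiation with an insulin, transferrin and selenium supplement. KO cells had been transfected with Cas9 and a guide RNA against *Hnrnpa2b1*, which encodes an RNA-binding protein, and were selected with puromycin. WT cells carried no such knockout. For its Western blot the paper names the control as myoblasts given a scrambled guide sequence. Whether the WT libraries come from cells treated in that way is not stated in the sources used here. Each genotype has 3 libraries (KO1, KO2, KO3; WT1, WT2, WT3), and library values are always given in that order. By the methods, 3 independent clones were isolated for KO and WT, but which clone gave which library is not given in the sources used here. A difference between genotypes and one between clones therefore cannot be told apart, and p-values measure only the spread between these libraries.

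PTB proteins bind pyrimidine-rich RNA and mostly repress nearby exons. PTBP1 is present in most dividing cells, PTBP2 is best known from neurons and PTBP3 from blood cells, and the paralogs control each other's splicing. QK is a STAR-family protein that binds to ACUAA-type elements and promotes muscle-type exon choice in myoblasts. RBM20 represses exons of titin and of other sarcomere and calcium-handling genes in striated muscle. RBM24 and RBM38 are close paralogs that act on splicing and on mRNA stability during myogenesis. ESRP1 and ESRP2 drive the epithelial exon programme and are a check on epithelial cells in a muscle culture.

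The cross-control within the PTB family runs through an exon of *Ptbp2*, shown here because the values below are counts per gene and hold transcripts with and without it. GENCODE M21 lists it as exon 10 of transcripts Ptbp2-201 and Ptbp2-213 at chr3:119724612-119724645 (GRCm38, minus strand), inside the coding part, and it is 34 bases long. Transcript Ptbp2-208 skips it and is annotated as a target of nonsense-mediated decay. Its sequence, 5′ to 3′, is all in lower case because no part of it is marked.
Ptbp2 exon 10: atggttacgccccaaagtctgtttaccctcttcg

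Promoters are shown for *Ptbp1* and *Ptbp2*, a pair of paralogs that moved together in the counts, as the 250 bases before the RefSeq start site (GRCm38.p6). Capitals mark E-boxes, the CANNTG motif bound by MyoD-family factors, searched on this palindromic pattern so that both strands are covered. *Ptbp1* (chr10:79854182-79854431, plus strand) holds 2 and *Ptbp2* (chr3:119783389-119783638, minus strand, within the gene as deposited) holds 0.
Ptbp1 promoter: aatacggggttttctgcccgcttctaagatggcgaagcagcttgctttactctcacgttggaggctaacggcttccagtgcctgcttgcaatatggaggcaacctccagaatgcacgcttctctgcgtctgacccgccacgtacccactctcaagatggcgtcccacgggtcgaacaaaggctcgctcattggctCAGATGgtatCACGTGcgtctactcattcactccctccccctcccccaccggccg
Ptbp2 promoter: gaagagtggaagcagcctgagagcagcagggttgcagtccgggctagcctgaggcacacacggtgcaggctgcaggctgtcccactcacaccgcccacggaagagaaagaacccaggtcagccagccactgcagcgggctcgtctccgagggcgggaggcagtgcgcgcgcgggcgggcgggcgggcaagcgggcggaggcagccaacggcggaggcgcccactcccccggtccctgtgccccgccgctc
Of the 9 genes, 5 had an entry, and among these *Qk* and *Rbm38* also hold 0 E-boxes and *Rbm24* holds 2. Of 32851 mouse promoters of this length, 66.2% hold at least 1 E-box and 31.8% hold at least 2. GC content was 57.6% for *Ptbp1*, 72.4% for *Ptbp2* and 84.8% for *Qk*, beside a median of 52.4%.

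KO libraries held 36417517 to 40558740 gene-assigned reads and WT libraries 33605258 to 39134651. Counts were put on a CPM scale, relative to library size with edgeR's trimmed-mean (TMM) factors, and tested with edgeR's quasi-likelihood test, calling genes at a Benjamini-Hochberg adjusted p under 0.05 over all 14828 genes tested. Of these, 22.7% were called, 12.1% higher and 10.6% lower in KO, and the median log2 fold change of all tested genes was 0.03. RNA of *Hnrnpa2b1* itself, at 159, 195 and 249 CPM in KO and 225, 229 and 252 CPM in WT, overlapped between genotypes (log2 fold change −0.23, adjusted p = 0.381, edgeR), so transcript level does not check the labels. The methods state that loss of the protein was assessed by immunofluorescence and Western blotting, not analysed here. Defining skeletal muscle genes were present in each library, with a summed level over 10 markers of 9928, 4420 and 4579 TPM (length-corrected transcript abundance) in KO and 9015, 6913 and 8407 in WT. KO1 thus lay above the WT libraries in this sum while KO2 and KO3 lay below them, and of the 10 markers edgeR called 1, *Myod1*, higher in KO. *Actc1* and *Myh3*, an actin and an embryonic myosin gene, lay lower in every KO library than in any WT library and were called lower in TPM (adjusted p = 0.0265 and 0.0404, limma) and by DESeq2 (adjusted p = 0.0114 and 0.0198), but not by edgeR (adjusted p = 0.0890 and 0.126). In counts, *Acta1*, *Myog* and *Mymk* had log2 fold changes of 0.11, 0.06 and 0.06. Those of *Des*, *Ckm*, *Mylpf* and *Tnnt3* were below 0, without overlap-free groups or a call by edgeR.

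Of the 9 splicing regulators, 8 passed the filter on low counts and 4 were called, where 22.7% of all tested genes were: *Ptbp1*, *Ptbp2* and *Ptbp3* rose in KO (12.1% of all tested genes did), and *Rbm20* fell (10.6% did). *Qk*, *Rbm24*, *Rbm38* and *Esrp2* were not called, and *Esrp1* was too low to test. The CPM of KO and WT did not overlap for 5 genes, the called genes and *Rbm38*, where 44.3% of all tested genes have groups that do not overlap. All 4 calls are close to the threshold: they were lost when KO3, WT1 or WT3 was left out (0 members called by edgeR each time, 4 at an unadjusted p under 0.05 each time), while 1 remained without KO2 (*Ptbp3*), 1 without WT2 (*Ptbp1*) and 5 were called without KO1.

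**Figure D1:**
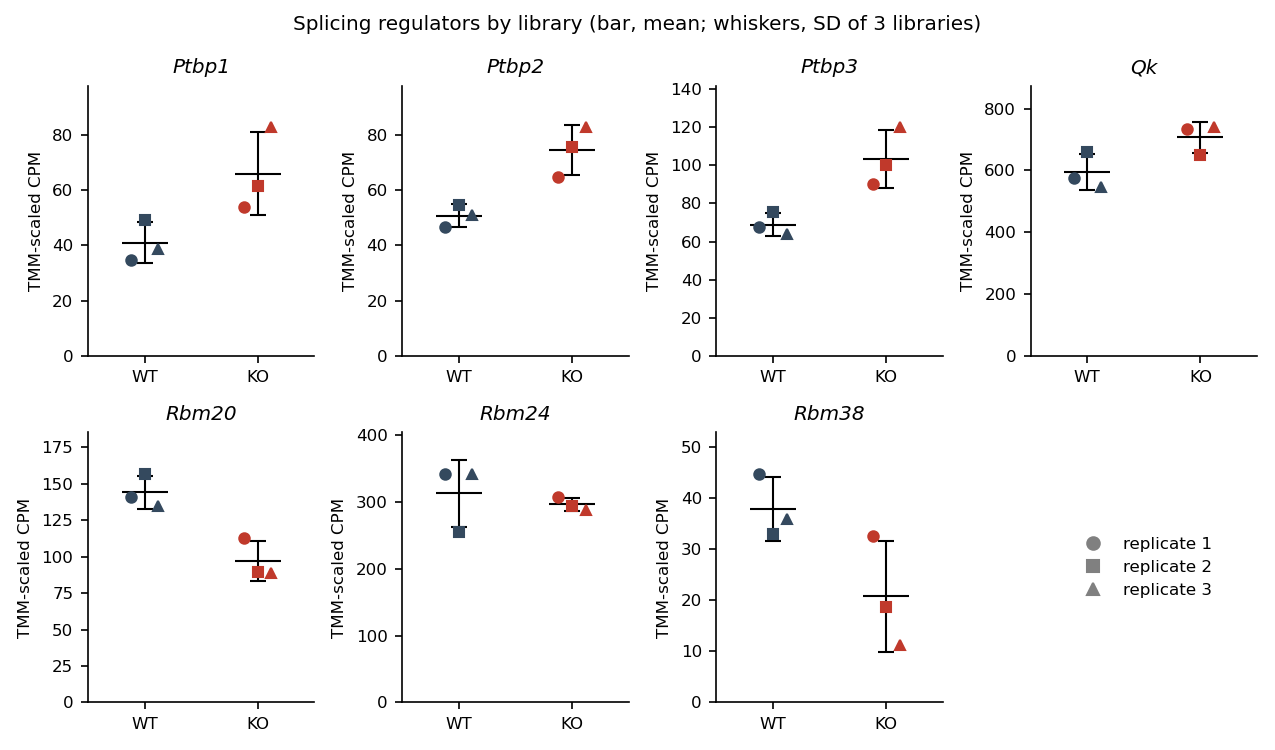
TMM-scaled CPM (y axis, from 0) of the 7 expressed regulators in WT and KO (x axis), with a symbol for each library, a bar for the mean and whiskers for the SD of 3 libraries. The 3 PTB genes lie higher in every KO library than in any WT library and *Rbm20* lower, *Qk* and *Rbm24* overlap, and *Rbm38* spreads from 11.2 to 32.5 CPM among KO libraries.

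*Ptbp1* (ENSMUSG00000006498, chr10:79854427-79864771, plus strand), the broadly expressed repressor of alternative exons, had 53.8, 61.3 and 82.7 CPM in KO and 34.7, 49.2 and 38.8 CPM in WT. The lowest KO library was above the highest WT library, and KO3 stood highest. The group means were 65.9 ± 15.0 (SD, n = 3) and 40.9 ± 7.52 CPM (SD, n = 3), and *Ptbp1* rose 1.61-fold (log2 fold change 0.69, standard error 0.20, adjusted p = 0.0432, edgeR). Some of its exon bases are shared with genes on the other strand, *Plppr3* (80 to 150 counts a library) and *E130317F20Rik* (93 to 169), and whether counting used strand is not given in the sources used here. *Ptbp1* itself had 1199 to 3386 counts.

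*Ptbp2* (ENSMUSG00000028134, chr3:119718742-119784466, minus strand), the paralog that replaces PTBP1 in maturing neurons, had 64.9, 75.6 and 82.8 CPM in KO and 46.5, 54.8 and 51.1 CPM in WT. All KO libraries were above all WT libraries. It rose 1.47-fold (log2 fold change 0.55, standard error 0.14, adjusted p = 0.0257, edgeR), from 50.8 ± 4.14 (SD, n = 3) to 74.4 ± 8.99 CPM (SD, n = 3). No other annotated gene shares exon bases with it. These counts do not separate the transcripts with exon 10, printed above, from those without it.

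*Ptbp3* (ENSMUSG00000028382, chr4:59471868-59549364, minus strand), also known as ROD1, had 90.1, 100 and 120 CPM in KO and 67.6, 75.5 and 63.7 CPM in WT. The groups again did not overlap, and KO3 was again the highest library. It rose 1.5-fold in counts (log2 fold change 0.59, standard error 0.14, adjusted p = 0.0260, edgeR). In TPM, *Ptbp3* overlapped between the genotypes, at 9.16, 10.3 and 16.2 TPM in KO and 9.17, 10.5 and 6.89 TPM in WT. The TPM are StringTie values without TMM factors, and why they differ from the counts was not tested.

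The PTB genes were ordered alike among the KO libraries, with KO1 lowest and KO3 highest for each of them. Over the 6 libraries, Pearson's r of log2 CPM was 0.968 between *Ptbp1* and *Ptbp2*, 0.967 between *Ptbp1* and *Ptbp3* and 0.972 between *Ptbp2* and *Ptbp3*, a description in which the genotype difference and the library scaling are shared. Their summed TPM was 39.8, 50.3 and 69.3 in KO and 32.8, 40.6 and 32.8 in WT. KO1 fell below WT2 in this sum, so the genotypes overlap in TPM. Within the sum, *Ptbp1* made up 38.4% to 39.6% in KO and 34.6% to 39.4% in WT, *Ptbp2* made up 37.1% to 40.4% and 37.5% to 39.6%, and *Ptbp3* made up the remainder. The balance of the leading pair can be read without any scaling of the libraries. The log2 ratio of *Ptbp1* to *Ptbp2* in TPM averaged 0.01 ± 0.07 over KO libraries and −0.07 ± 0.06 over WT libraries (SD, n = 3 each), a difference of 0.08 (exact two-sided permutation test, p = 0.3, where 0.1 is the smallest p possible for 3 against 3). It was 0.04 without KO3 and 0.13 in CPM (exact p = 0.4).

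Genes known as partners or targets of PTB were counted from a list of 12, all of them tested: 4 rose and 1 fell, which is 41.7% called beside 22.7% of all tested genes, with a median log2 fold change of −0.05. *Actn1*, an actin cross-linker whose alternative exons PTB represses, had 261, 206 and 309 CPM in KO and 116, 171 and 118 CPM in WT, and rose by 0.93 on the log2 scale (adjusted p = 0.0202, edgeR). *Src*, a tyrosine kinase gene with a PTB-repressed neuronal exon, had 32.3, 37.0 and 34.1 CPM in KO and 20.8, 26.7 and 20.1 CPM in WT, and rose by 0.62 without overlap. *Fgfr2*, a growth factor receptor with mutually exclusive exons, was low, at 0.644, 4.03 and 7.25 CPM in KO and 0.405, 0.731 and 0.404 CPM in WT, and its rise of 2.95 comes from KO2 and KO3, since KO1 lies inside the WT range. The death receptor gene *Fas*, named after its value was seen, was the 1 gene of the list that fell, by 0.59 on the log2 scale. The list's calls fell to 0 without KO3, WT1 or WT3 (6 at an unadjusted p under 0.05 each time, edgeR) and to 2 and 3 without KO2 and WT2. The partners *Raver1*, *Raver2* and *Matr3* were not called.

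*Qk* (ENSMUSG00000062078, chr17:10206471-10319361, minus strand) had the highest mean TPM of the 9 genes in both genotypes. It was measured at 734, 650 and 740 CPM in KO and 577, 659 and 548 CPM in WT. KO2 lay below WT2, so the groups overlapped. The log2 fold change was 0.25 with a 95% interval of −0.11 to 0.62 (adjusted p = 0.272, edgeR), which takes in the fold changes of *Ptbp2* and *Ptbp3*. *Qk* shares no exon bases with another annotated gene. In a list of 11 STAR relatives and QK targets, 7 were tested, 2 rose and 1 fell, which is 42.9% called beside 22.7% of all tested genes (median log2 fold change 0.34). *Hnrnpa1*, which encodes the hnRNP A1 splicing repressor, had 283, 468 and 438 CPM in KO and 229, 219 and 231 CPM in WT, and rose by 0.81 (adjusted p = 0.0268, edgeR). *Cdkn1b*, the cell cycle inhibitor p27, had 99.8, 122 and 97.5 CPM in KO and 285, 177 and 239 CPM in WT, and fell by 1.13 on the log2 scale. *Mbp*, the myelin protein gene, rose by 1.88 from counts of only 3, 8 and 13 in WT to 43, 30 and 27 in KO. Of these genes only *Cdkn1b* was still called without KO2, KO3, WT1, WT2 or WT3.

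*Rbm20* (ENSMUSG00000043639, chr19:53677306-53867080, plus strand) was the 1 member that edgeR called lower. It had 113, 89.7 and 88.7 CPM in KO and 141, 157 and 135 CPM in WT, so that every KO library lay below every WT library, and KO1 lay nearest to WT. The level in KO was 0.671 of that in WT (log2 fold change −0.58, standard error 0.14, adjusted p = 0.0258, edgeR). It was also lower in TPM, at 12, 9.97 and 11.8 TPM in KO and 16.3, 18.8 and 14.9 TPM in WT, a log2 difference of −0.52 (adjusted p = 0.0419, limma on log2(TPM + 1)). It shares no exon bases with another annotated gene. In bulk RNA, fewer cells that express a gene and less RNA per cell cannot be told apart.

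Transcripts that RBM20 is known to splice were counted from a list of 17, of which 15 were tested. Of these, edgeR called 0 higher and 7 lower, beside 10.6% of all tested genes called lower. The other 8 were not called, and 2 of the 15 had a log2 fold change above 0. The median log2 fold change of the list was −0.58. Gene totals give no view of how these transcripts were spliced. *Camk2d*, a calcium-dependent kinase, had 64.5, 48.2 and 48.5 CPM in KO and 123, 102 and 113 CPM in WT, and fell by 1.07 on the log2 scale (adjusted p = 0.00502, edgeR). *Rtn4*, a reticulon of the endoplasmic reticulum, had 1302, 1032 and 992 CPM in KO and 2834, 2254 and 2898 CPM in WT, and fell by 1.26. *Pdlim3*, a Z-disc protein gene, had 43.4, 22.1 and 23.8 CPM in KO and 132, 90.1 and 108 CPM in WT, and fell by 1.89. *Mlip*, a lamin-interacting protein gene of muscle, had 6, 0 and 0 counts in KO and 89, 48 and 146 in WT, and its log2 fold change of −5.61 rests on the 6 counts of KO1, since KO2 and KO3 are at 0.

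Those 4 genes remained called under every alternative run on the counts, while the list's calls fell from 7 to 4 without KO3, WT1 or WT3 and rose to 11 with no filter on low counts and 10 with DESeq2. Titin, *Ttn*, the best-known RBM20 target, varied more than 3-fold within KO, at 5757, 3143 and 9878 CPM in KO beside 2596, 4905 and 5216 CPM in WT (log2 fold change 0.56, adjusted p = 0.396, edgeR). *Trdn*, the triadin gene of the calcium-release complex, had 177, 9.64 and 7.32 CPM in KO and 606, 495 and 678 CPM in WT, without overlap. It missed the threshold in counts (adjusted p = 0.0774, edgeR) and passed it in TPM (log2 difference −4.11, adjusted p = 0.00917, limma). Both were singled out after their values were seen. The skeletal muscle marker sum given above, and *Actc1* and *Myh3* within it, were lowest in KO2 and KO3, and their part in these values was not tested.

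*Rbm24* (ENSMUSG00000038132, chr13:46418300-46431090, plus strand), which binds and stabilizes muscle mRNAs, had 307, 294 and 287 CPM in KO and 341, 255 and 342 CPM in WT. The KO libraries lay within the WT range. The log2 fold change was −0.08 with a 95% interval of −0.44 to 0.29 (adjusted p = 0.741, edgeR). *Rbm38* (ENSMUSG00000027510, chr2:173020498-173034734, plus strand), its paralog and a p53-induced regulator of the *Cdkn1a* mRNA, had 32.5, 18.6 and 11.2 CPM in KO and 44.8, 32.9 and 35.9 CPM in WT. KO1 lay just under the lowest WT library, and KO3 far below it. The log2 fold change was −0.87 with a standard error of 0.35 and a 95% interval of −1.67 to −0.07, and the adjusted p of 0.106 (edgeR) did not pass the threshold.

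The call for *Rbm38* depended on the setting. It passed with DESeq2 (adjusted p = 0.0405), with no filter on low counts, with a replicate block and without KO1 (log2 fold change −1.35), and its adjusted p ranged from 0.000416 to 0.285 over the alternatives on the counts. In TPM it overlapped, at 25.6, 11.7 and 8.85 in KO and 24.9, 22.3 and 19.2 in WT. The log2 ratio of *Rbm38* to *Rbm24* in TPM was −1.17, −2.31 and −2.93 in KO and −1.53, −1.31 and −1.79 in WT. KO1 was above all WT libraries and KO2 and KO3 below them, and the difference of −0.60 was within this spread (p = 0.4 in the exact two-sided permutation of 3 against 3 libraries). It ran from −1.08 without KO1 (exact p = 0.1, the smallest possible there) to −0.20 without KO3, and was −0.92 in CPM (exact p = 0.2).

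**Figure D2:**
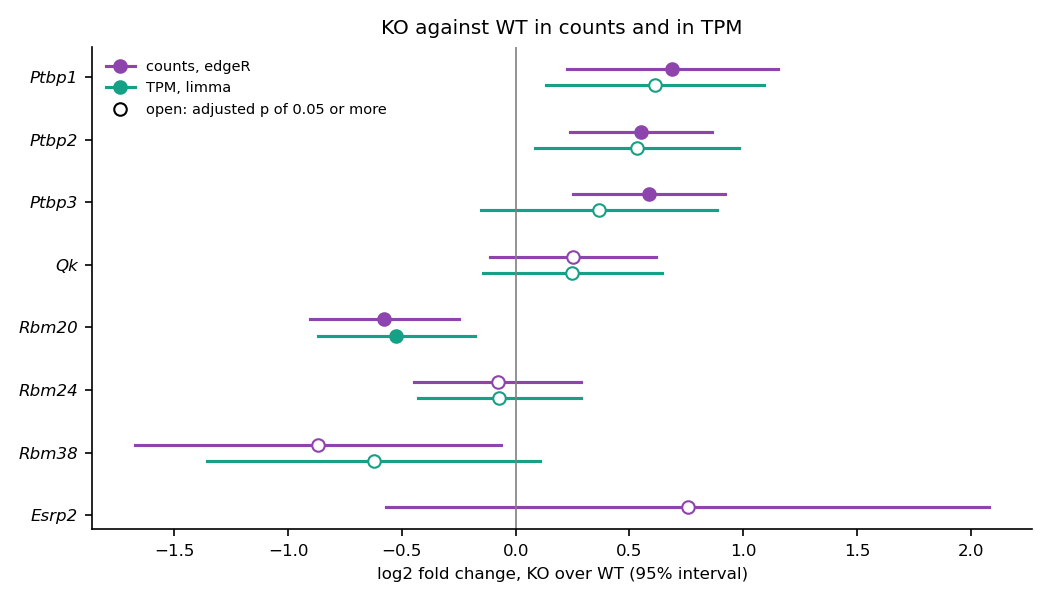
Log2 fold change of KO over WT (x axis) for each tested regulator (y axis), from counts with edgeR and from TPM with limma, with 95% intervals; filled points passed an adjusted p of 0.05. Directions match between the measures for the 7 genes that have both, *Rbm20* is filled in both, and the interval of *Ptbp3* in TPM crosses 0.

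Of 12 genes known as targets of RBM24 or RBM38, 11 were tested, 1 rose and 2 fell, which is 27.3% called, near the 22.7% of all tested genes (median log2 fold change −0.31). *E2f1*, a cell cycle transcription factor, had 9.93, 11.8 and 7.27 CPM in KO and 5.29, 5.82 and 5.63 CPM in WT, and rose by 0.79 (adjusted p = 0.0378, edgeR). *Mdm2*, the ubiquitin ligase of p53, had 87.4, 80.0 and 83.7 CPM in KO and 164, 131 and 137 CPM in WT, and fell by 0.78 on the log2 scale. *Pkp2*, a desmosomal plakophilin gene, fell by 0.79. The cell cycle inhibitor gene *Cdkn1a* and the myogenic factor gene *Myog*, which encode mRNAs bound by these proteins, were not called by edgeR, with log2 fold changes of −0.74 (adjusted p = 0.104) and 0.06 (adjusted p = 0.863). *Cdkn1a* did pass with DESeq2 (adjusted p = 0.0393) and in TPM (adjusted p = 0.0394, limma), at 194, 119 and 114 TPM in KO and 291, 206 and 249 TPM in WT. The list's calls fell to 1 without KO2, WT1 or WT2, and rose to 5 with DESeq2 and 6 without KO1.

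*Esrp1* (ENSMUSG00000040728, chr4:11331933-11386783, minus strand) had 0, 0 and 1 counts in KO and 0, 1 and 2 in WT, within the limit of 3 counts that a count of 0 allows, and was not detectable at this depth. *Esrp2* (ENSMUSG00000084128, chr8:106130319-106136974, minus strand) had 13, 9 and 21 counts in KO and 12, 6 and 4 in WT, which overlap (log2 fold change 0.76, 95% interval −0.57 to 2.08, adjusted p = 0.364, edgeR). Some of its exon bases are shared with *Nfatc3* on the other strand, which had 1373 to 1649 counts, and reads of the pair cannot be told apart without strand. All 9 epithelial markers were under 1 TPM in every library, with *Epcam*, *Krt18* and *Ovol1* at or under 3 counts. Among 6 ESRP target genes, 3 were called, where 22.7% of all tested genes were. *Fgfr2* and *Ctnnd1* (by 0.66) rose and *Enah* fell (by 0.58 on the log2 scale), and of these *Fgfr2* and *Enah* also stand in the PTB and RBM20 lists. These calls fell to 0 without KO3, WT1, WT2 or WT3 (3 at an unadjusted p under 0.05 each time, edgeR) and to 1 without KO2.

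Levels can be compared between genes per length only, in TPM. In KO the order of mean TPM was *Qk* (89.1 ± 14.1, SD, n = 3), *Rbm24* (61.2 ± 5.60), *Ptbp1* (20.8 ± 6.14), *Ptbp2* (20.5 ± 5.18), *Rbm38* (15.4 ± 8.94), *Ptbp3* (11.9 ± 3.75) and *Rbm20* (11.3 ± 1.14). The neighbours from *Ptbp1* to *Rbm20* overlapped in their ranges. In WT it was *Qk* (74.7 ± 10.4), *Rbm24* (64.6 ± 8.57), *Rbm38* (22.1 ± 2.86), *Rbm20* (16.7 ± 1.99), *Ptbp2* (13.6 ± 1.70), *Ptbp1* (13 ± 1.62) and *Ptbp3* (8.86 ± 1.83). There *Qk* overlapped with *Rbm24*, *Rbm20* with *Ptbp2*, and *Ptbp2* with *Ptbp1*. *Rbm38* and *Rbm20* thus had higher mean TPM than all PTB genes in WT, and *Rbm20* stood last of the 7 in KO. *Esrp2* was under 0.1 TPM in every library and *Esrp1* is listed at 0. By limma on log2(TPM + 1), 7 members were tested and 1 was called, *Rbm20*, where 20.5% of 11691 genes were called. TPM of KO and WT did not overlap for *Ptbp1* and *Rbm20*, 2 members, beside 40.6% of all genes tested in TPM. *Ptbp1*, at 15.3, 19.7 and 27.4 TPM in KO and 11.3, 14.6 and 12.9 TPM in WT, had an adjusted p of 0.0720 (limma).

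Because neighbouring genes can move together, each member was set beside the tested genes that start within 5 Mb of it. Around *Ptbp1* the median log2 fold change of 189 neighbours was −0.04, around *Ptbp2* that of 58 was 0.07, around *Ptbp3* that of 48 was −0.08, and around *Rbm20* that of 30 was 0.00. The 4 called genes thus differed from their surroundings by about as much as from WT. Around *Rbm38* the median of 47 neighbours was 0.34, with 14 higher and 2 lower (12.1% and 10.6% of all tested genes), and 0.27, 0.34 and 0.35 in the KO libraries taken singly. The log2 fold change of *Rbm38*, which was not called, was −0.87 (−1.35 to −0.57 with 1 library left out), 1.21 below that median, and its libraries lay −0.21, −1.01 and −1.74 from the WT mean in KO. Around *Esrp2* the median of 107 neighbours was 0.14, with 23 higher and 3 lower, and around *Rbm24* that of 52 was −0.04, with 1 higher and 9 lower.

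**Figure D3:**
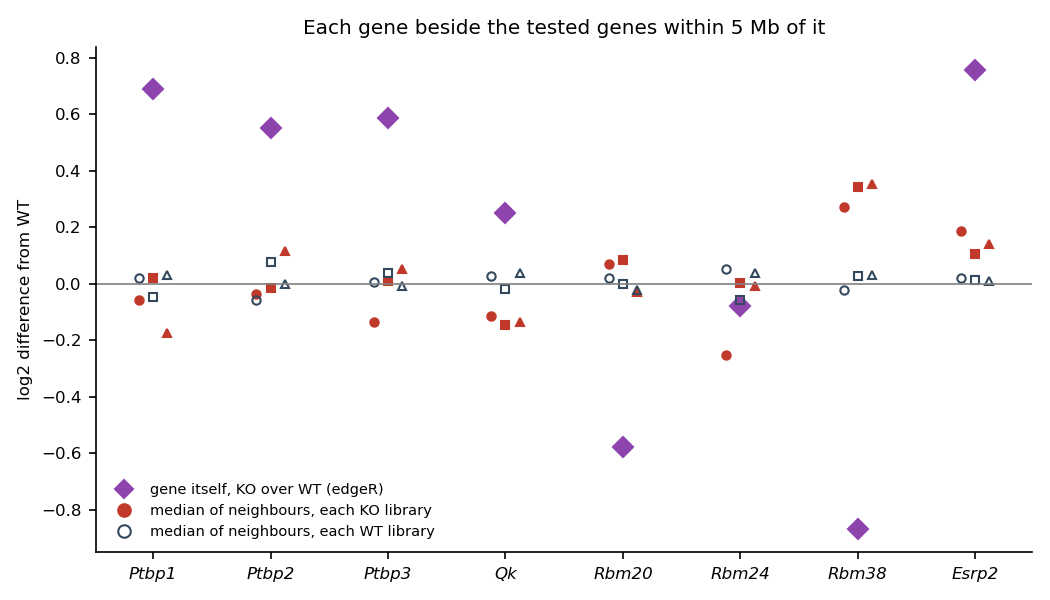
Log2 difference from WT (y axis) for each regulator (diamond, edgeR) and for the median of the tested genes within 5 Mb in each KO library (filled symbols) and each WT library (open symbols). The medians around *Rbm38* lie at 0.27 to 0.35 in KO libraries while the gene itself lies at −0.87.

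The genes whose log2 CPM ran most nearly parallel to a called member over the 6 libraries were taken from 5382 well-expressed genes by Pearson's r. For *Ptbp1* they were *Reep3* (0.994), *Rasa1* (0.992) and *Tm7sf3* (0.991), and for *Ptbp2* they were *Rsu1*, *Smarcad1* and *Ddx5* (0.996 to 0.997). For *Ptbp3* they were *Polr3f*, *Zfp236* and *Smc6*, and for *Rbm20* they were *Csnk1a1*, *Alcam* and *Mtdh* (0.994 to 0.998). With 6 points and a genotype difference in common, these values describe only the pattern.

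The other families of muscle splicing regulators, MBNL, CELF and RBFOX, held 12 genes, of which 10 were tested, 2 rose and 1 fell, 3 genes where 22.7% of all tested genes were called (median log2 fold change 0.05). *Mbnl3* had 5.43, 3.09 and 3.27 CPM in KO and 1.27, 1.13 and 0.997 CPM in WT, and rose by 1.79 (adjusted p = 0.00909, edgeR). *Celf4* rose by 2.47, from 20 to 35 counts in WT libraries to 86 to 205 in KO libraries. *Rbfox1* had 1.73, 0.321 and 0.513 CPM in KO and 13.3, 11.7 and 11.8 CPM in WT, and fell by 3.86 on the log2 scale. These 3 calls held without any single library.

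**Figure D4:**
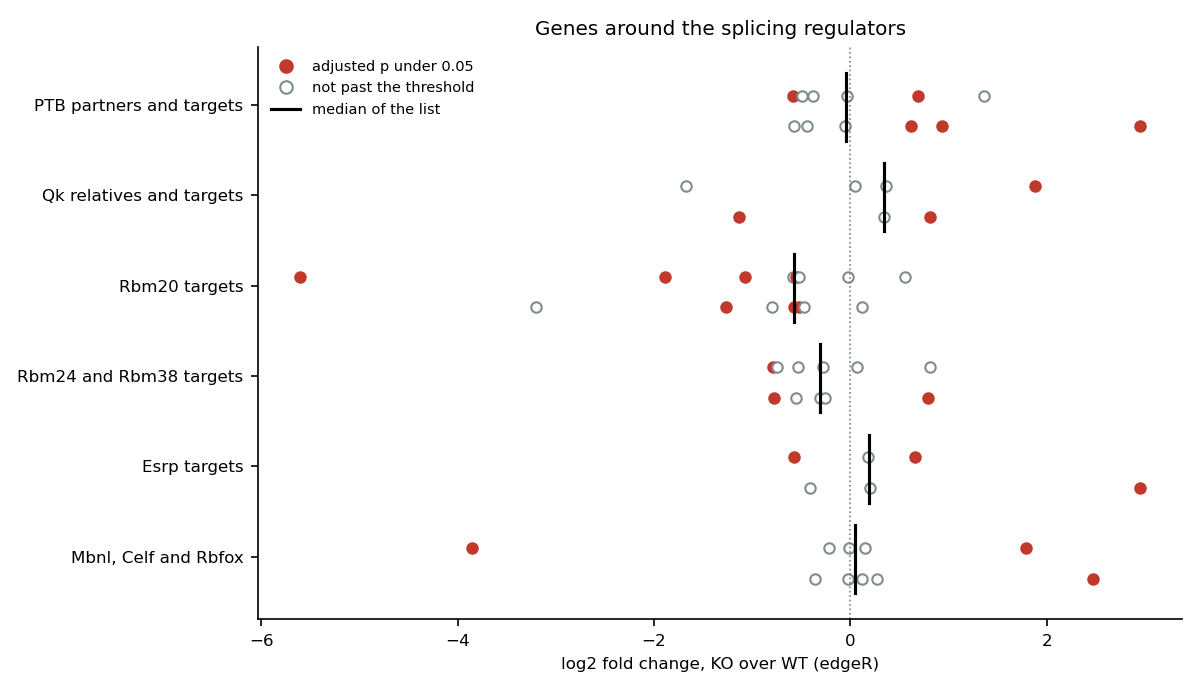
Log2 fold change of KO over WT (x axis, edgeR) of the tested genes in 6 lists (y axis), with filled points for an adjusted p under 0.05 and a black line for each list's median. In the Rbm20 list the 7 filled points all lie below 0, whereas the other lists hold filled points on both sides.

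Markers of other cell types were read beside these results, as summed TPM. Cardiac markers summed to 6.13 to 10.1 in KO and 14.4 to 27.8 in WT, the direction of *Rbm20*, with *Nppa*, *Nppb*, *Tbx5* and *Myl7* at or under 3 counts in every library and *Gata4* called lower of 4 tested by edgeR. *Tnni3* overlapped, at 3.56, 4.49 and 3.21 TPM in KO and 9.18, 2.75 and 14 TPM in WT. *Nkx2-5* overlapped too, and neither gene was called by edgeR (adjusted p = 0.135 and 0.764). *Myh6*, a cardiac myosin gene, was called lower in TPM (adjusted p = 0.00925, limma) and not in counts (adjusted p = 0.0607, edgeR, and 3.64e-12 to 0.151 over the alternatives on the counts), at 3.05, 0.341 and 0.674 TPM in KO and 6.34, 6.20 and 7.84 TPM in WT. Neuronal markers summed to 7.56, 5.34 and 2.76 in KO and 1.29, 2.59 and 0.851 in WT, so that KO1 was highest where *Ptbp2* was lowest among KO libraries. *Stmn2* alone gave 7.02, 4.95 and 2.39 TPM of the KO sums, and the other 7 markers were under 1 TPM in every library, with *Rbfox3*, *Snap25* and *Nefl* at or under 3 counts. Of 4 tested, edgeR called *Stmn2* higher and *Syt1* lower, and both calls were lost under some alternatives on the counts, with adjusted p of up to 0.137 and 0.112, as were those of *Pdgfra* (up to 0.109) and *Myod1* (up to 0.0789). Fibroblast markers overlapped in their sum, at 149 to 429 in KO and 260 to 360 in WT, most of it *Col1a2* (141 to 365 and 249 to 350 TPM). Among them *Pdgfra* was called higher (2.24-fold, adjusted p = 0.0257, edgeR) without overlap, and *Col1a1* was not called, at 449, 42.4 and 440 CPM in KO and 46.4, 55.6 and 107 CPM in WT. KO1 stood apart in *Dcn*, at 90.6 CPM beside 7.01 to 17.7 CPM in the other libraries, in *Lum*, at 86 counts beside 3 to 11, and in epithelial *Cdh1*, at 79 counts beside 1 to 6. The part of these markers in the members' values was not tested.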

How the data were processed

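RNA-seq libraries of 3 KO and 3 WT C2C12 cultures were grouped by the titles of the samples. The authors deposited raw read counts per gene for all 6 libraries in 1 table, and StringTie TPM values for each library, which the authors made from STAR alignments. The FPKM and coverage values that the authors deposited beside the TPM were not used here. The submitters' notes name FastQC, Trim Galore, STAR, featureCounts, StringTie and Salmon and the build mm9, and the methods name GRCm39, whereas the deposited coordinates match GRCm38 (7 of 9 members have the GENCODE M21 start and end, *Qk* and *Rbm24* differ slightly). Counts give no view of splicing, and counting over all exons can mix overlapping genes.

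Counts were filtered with filterByExpr, scaled with TMM (factors 0.949 to 1.08) and tested with a two-sided quasi-likelihood test, genotype alone (edgeR 4.0.16, limma 3.58.1, R 4.3.3). Genes reaching a TPM of 1 in 3 or more libraries were tested with limma on log2(TPM + 1), after summing values that share an identifier, so TPM differences are on that scale and understate low genes. DESeq2 1.42.0, other scalings, no filter, a pseudocount of 0.1, a replicate block and leaving out each library were alternatives. The steps were tested on simulated data. Members other than *Esrp1* and *Esrp2* had at least 460 counts in each library.

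The members and lists were chosen with earlier results of these data known. Genes named by rule were the members, the 3 genes most alike to each called member, and *Hnrnpa2b1*. Up to 4 called genes of each list, by size of change, were also named by rule. Other list genes and markers named in the text, among them *Cdkn1a*, *Myog*, *Raver1*, *Raver2* and *Matr3*, fall outside this rule. The values of 1 listed gene are not reported here. Protein sequences were not used here.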

Additional observations from a re-analysis of the deposited data

How the results depend on the processing

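The direction of *Ptbp1*, *Ptbp2*, *Ptbp3*, *Rbm20* and *Rbm38* was the same under every alternative run, in counts and in TPM, whereas the calls were not; the cause was not tested. With 1 library left out, log2 fold changes in counts ranged from 0.50 to 0.84 for *Ptbp1*, 0.47 to 0.63 for *Ptbp2*, 0.47 to 0.67 for *Ptbp3*, −0.70 to −0.51 for *Rbm20* and −1.35 to −0.57 for *Rbm38*. The number of members called ranged from 0 to 5 in counts and from 0 to 4 in TPM, where it was 0 whichever library other than KO1 was left out (1 to 3 at an unadjusted p under 0.05). The number of genes called ranged from 933 (without WT1) to 4712 (without KO1) in counts and from 484 to 3156 in TPM. Those TPM differences ranged from 0.40 to 0.80 for *Ptbp1*, 0.36 to 0.72 for *Ptbp2*, 0.14 (without KO3) to 0.52 for *Ptbp3*, −0.60 to −0.44 for *Rbm20*, −1.04 to −0.32 for *Rbm38* and −0.18 to 0.011 for *Rbm24*, which turned to 0.011 without WT1.

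*Rbm38* was called with DESeq2 (−0.89), with no filter on counts (−0.89) and with a replicate block (−0.98). With no filter on TPM, 1075 genes and 0 members were called (3 members at an unadjusted p under 0.05, limma), and *Rbm20* stayed at −0.52 with an adjusted p of 0.0809. Same-numbered libraries did not deviate together (r of 0.137, −0.116 and 0.00), so the numbers do not pair them. With the replicate block, 2520 genes and 2 members, *Ptbp2* and *Rbm38*, were called in counts, with *Ptbp1* at 0.68, *Ptbp3* at 0.58 and *Rbm20* at −0.58 (adjusted p = 0.0533, 0.0570 and 0.0513, edgeR). In TPM the block called 0 members (4 at an unadjusted p under 0.05, limma), with *Rbm20* at −0.52. Each genotype has only 3 libraries, which limits every call.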
